A study of Mus musculus with 4 samples.

Results

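The genes described here encode 10 adhesion molecules whose extracellular part contains immunoglobulin domains: Ncam1, Ncam2, L1cam, Alcam, Mcam, Vcam1, Icam1, Nrcam, Chl1 and Cadm1. They were chosen by name, as all non-control probes that the array files assign to one of these genes, and this gave 23 of 61307 probes and 10 of 50090 gene names. RNA came from C3H10T1/2, a mouse embryo fibroblast line that stops growing at contact and is used to score transformation by carcinogens. The 2 arrays of the 3MC+TPA group held RNA of cells given the tumour initiator 3-methylcholanthrene (3MC), which damages DNA once metabolised, for 2 days at 2.5 µg/ml. The tumour promoter 12-O-tetradecanoylphorbol-13-acetate (TPA) followed for 2 weeks at 100 ng/ml, and normal medium for another 4 weeks. The 2 control arrays held RNA of the same line cultured for 6 weeks, with no exposure named in the labels. The comparison asks which of these genes differed in level between exposed and control cultures.

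Immunoglobulin-type adhesion molecules sit in the plasma membrane and hold cells together by binding a like molecule on the next cell, a different member of the family, or an integrin. Those of the NCAM and L1 families are best known from neurons, where they guide growth and bundling of axons, while VCAM1 and ICAM1 on vessel walls bind leukocyte integrins. Their cytoplasmic ends link to the cytoskeleton through ankyrins and proteins of the ezrin family, and proteases at the cell surface can cut the extracellular part free.

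Each array carried 61657 non-control spots, and between 32125 and 32512 of them were well above background by the scanner's own flag. Values are on a log2 scale of the processed signal, on which 0 is the 75th percentile of the array and 1 unit is a 2-fold difference. They serve to compare arrays within 1 probe and not to rank genes. The slide and the scan were the same for all 4 arrays, but each group filled neighbouring places on it, so place and group cannot be told apart. The cells kept the markers of fibroblasts: all 10 listed markers, among them Col1a1, Col1a2 and Vim, were well above background on every array. Their summed linear signal, in units of the array's 75th percentile, was 1550 and 1610 on the 3MC+TPA arrays and 2050 and 1830 on the control arrays. The endothelial genes Pecam1, Cdh5, Kdr, Tie1 and Emcn and the leukocyte genes Ptprc, Itgam and Lyz2 were not well above background on any array. Nor were the epithelial genes Cdh1 and Krt18, the neural and glial genes Rbfox3 and Gfap and the muscle genes Myod1, Myog, Myf5 and Pax7. In RNA of whole cultures, a change in the number of cells that carry a transcript and a change in the amount per cell cannot be told apart.

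The probes on which the results turn are shown by their first 30 of 60 bases, as the array files give them, 5′ to 3′ and with no base marked. They are those of Ncam1, Mcam and Nrcam, the genes that changed, because not all probes of Ncam1 and of Nrcam were called. For Ncam1, whose splicing gives both lipid-anchored and membrane-spanning proteins, the files list different RefSeq transcripts for different probes. Probe P347103 is listed for NM_001113204 alone and probe P382754 for NM_010875 alone. Probes P380309 and P613255 are listed for NM_001081445 and NM_001113204, and probes P684037 and P291924 for all 3 of these transcripts. Both Mcam probes are listed for NM_023061, and both Nrcam probes for NM_001146031 and NM_176930.
Ncam1 P380309: actttttactgagtgaaacatcaacaccac
Ncam1 P613255: aaagagacaaaaaggttaaacccacagcca
Ncam1 P684037: agatgtcattctgaaaaaagacgtccggtt
Ncam1 P291924: gaagagcatccagtacacagatgctggaga
Ncam1 P382754: tcctacaccttggtctcattgcttttctct
Ncam1 P347103: caacttcagctccctctgctagcaatctgt
Mcam P268439: caggacagagagaaggtctactgttcatgg
Mcam P268206: ccacagacagtagtgagcaccttgaatgtc
Nrcam P180413: ttaagctctgtgccaatgtctaatctctct
Nrcam P148222: tgttaaactcgtgactatgtctagctggtg

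Of the 10 genes, Mcam, Ncam1 and Nrcam were higher in the 3MC+TPA cells, none was lower, Alcam and Vcam1 did not pass the test, and Ncam2, L1cam, Chl1, Icam1 and Cadm1 were too dim to be tested. Each gene was read by its brightest probe and was tested where that probe was well above background on both arrays of at least 1 group. The test was limma's, with Benjamini-Hochberg adjustment over all 24981 gene names tested and a threshold of 0.05. By the same rule 15.8% of all tested gene names were called, 7.47% higher and 8.35% lower. Of the 23 probes, 12 were tested by the same rule, and 6 were called higher and 0 lower, where 7.52% of all 32107 tested probes were called higher and 8.02% lower. Of those 12 probes 9 were well above background on all 4 arrays, and 3 were so on the 3MC+TPA arrays alone, so that they entered the test by being high there. All 5 tested genes were well above background on all 4 arrays. Their median log2 change was 2.10, beside -0.01 over all tested gene names.

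**Figure D1:**
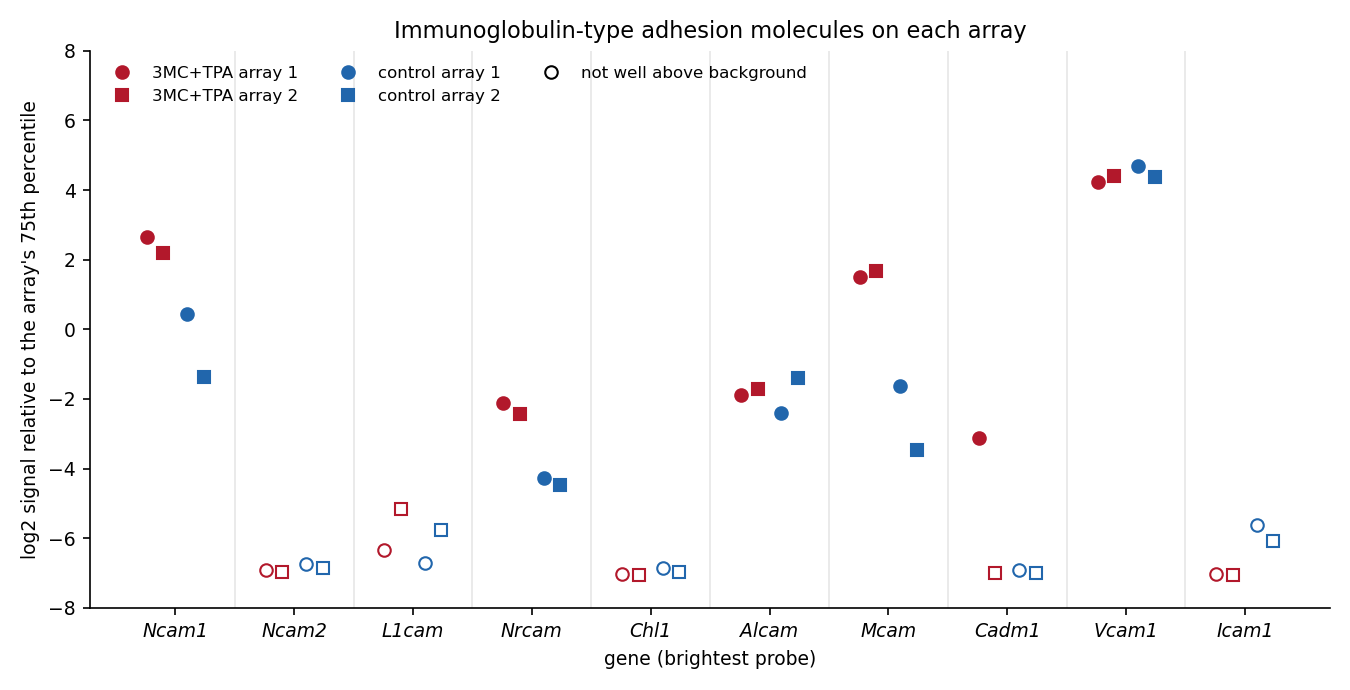
Log2 signal of the 10 genes on each array (vertical axis, with the array's 75th percentile at 0), each read by its brightest probe; red marks the 3MC+TPA arrays and blue the control arrays, circles array 1 and squares array 2, and open symbols are not well above background. Ncam1, Nrcam and Mcam lie higher on both 3MC+TPA arrays than on both control arrays. Of all tested gene names, 63.9% had groups that did not overlap in either direction. The control arrays of Ncam1 and Mcam lie 1.79 and 1.86 apart, and the Cadm1 probe is well above background on 1 array.

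Mcam, the melanoma adhesion molecule of endothelial cells, pericytes and melanoma, had the largest change of the 5 tested genes. Its brighter probe, P268439, read 1.50 and 1.68 on the 3MC+TPA arrays, against -1.62 and -3.48 on the control arrays. The groups did not overlap, as was the case for 63.9% of tested gene names. The exposed arrays lay close together while the control arrays lay far apart. The means were 1.59 ± 0.13 in 3MC+TPA cells and -2.55 ± 1.31 in control cells (SD, n = 2 each). The log2 change was 4.15 ± 0.60 (SE), or 17.7-fold (limma adjusted p = 0.014), with a 95% interval from 2.60 to 5.69. Without control array 1 the log2 change was 5.08 and without control array 2 it was 3.22, both past the threshold (limma adjusted p = 0.0011 and 0.0035). The call was lost without either 3MC+TPA array, at 4.24 without array 1 and 4.06 without array 2 (limma adjusted p = 0.075 and 0.087).

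The second Mcam probe, P268206, was dimmer and read -2.21 and -2.31 on the 3MC+TPA arrays, against -5.01 and -6.83 on the control arrays. Both control values were not well above background, so the probe gives only a bound: Mcam was at least 5.63-fold higher in 3MC+TPA cells by this probe. Such a bound sets the mean of the bright group against the lowest signal counted as above background on each array of the dim group. In the test over all probes, in which 15.5% were called, this probe passed with a limma adjusted p of 0.018. It entered the test through the 3MC+TPA arrays alone. With the background removed by the normexp method its log2 change was 1.12, which is short of the bound, with a limma adjusted p of 0.004. Here and below, normexp also adds an offset of 50 to every spot, which by itself makes the log2 changes of dim probes smaller. How much of a smaller change came from the offset was not tested.

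Ncam1, the neural cell adhesion molecule of neurons, glia and muscle precursors, was also higher in exposed cells. Its brightest probe, P380309, read 2.65 and 2.20 on the 3MC+TPA arrays, against 0.44 and -1.36 on the control arrays. Here too the groups did not overlap, as for 63.9% of tested gene names, and control array 2 was the lowest. The means were 2.42 ± 0.31 in 3MC+TPA cells and -0.46 ± 1.27 in control cells (SD, n = 2 each), a log2 change of 2.88 ± 0.60 (SE) or 7.38-fold (limma adjusted p = 0.036). The 95% interval of the change ran from 1.36 to 4.41. Without control array 1 the log2 change was 3.78 and without control array 2 it was 1.99, both past the threshold (limma adjusted p = 0.0027 and 0.018). Without 3MC+TPA array 1 it was 2.66, and without 3MC+TPA array 2 it was 3.11, neither past it (limma adjusted p = 0.15 and 0.12).

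The log2 changes of the 6 Ncam1 probes ran from -0.23 to 2.88. No probe differed from the others past the threshold in the test between probes of 1 gene given below. Probe P613255, listed for the same pair of transcripts as the brightest probe, read 2.17 and 1.74 on the 3MC+TPA arrays, against 0.09 and -0.99 on the control arrays. Its log2 change was 2.40 ± 0.39 (SE), or 5.28-fold (limma adjusted p = 0.019 over probes). Of the probes listed for all 3 transcripts, P684037 read -3.94 and -4.06 on the 3MC+TPA arrays, against -5.39 and -6.71 on the control arrays, which were not well above background. By this probe Ncam1 was at least 1.68-fold higher in 3MC+TPA cells (limma adjusted p = 0.038 over probes), and after normexp the change no longer passed, at a log2 change of 0.28 (limma adjusted p = 0.22). Probe P291924 read -3.76 and -3.94 on the 3MC+TPA arrays, against -5.17 and -6.89 on the control arrays, again not well above background there. It did not pass (limma adjusted p = 0.06 over probes), and its log2 change was 2.18 ± 0.56 (SE) with the dim values as measured, and 0.29 after normexp. It passed under 5 of 12 alternatives, normexp not among them. Both of these dim probes entered the test through the 3MC+TPA arrays alone.

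The 2 Ncam1 probes listed for a single transcript did not pass the test. Probe P382754, for NM_010875, read 0.29 and 0.40 on the 3MC+TPA arrays, against -0.66 and -1.97 on the control arrays. The groups did not overlap, as for 64.1% of tested probes, and the log2 change was 1.66 ± 0.43 (SE) with a limma adjusted p of 0.063 over probes. It passed under 6 of 13 alternatives, normexp among them, at a log2 change of 1.36 (limma adjusted p = 0.026). Probe P347103, for NM_001113204, read -2.30 and -2.13 on the 3MC+TPA arrays, against -1.97 and -2.00 on the control arrays. Its log2 change was -0.23 ± 0.16 (SE), with a 95% interval from -0.64 to 0.17 (limma adjusted p = 0.36 over probes), and with no scaling between arrays it was 0.12. The interval of this probe does not reach the lower end, 1.37, of the interval of probe P380309, which is listed for the same transcript together with NM_001081445.

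The difference between probes of 1 gene was tested after these values were seen. Each tested probe was set against the mean of the other tested probes of its gene on the same array, over 12646 probes of 5560 genes. Relative to the other Ncam1 probes, P347103 had differences of -1.78 and -1.40 on the 3MC+TPA arrays, against 0.17 and 1.58 on the control arrays. Its log2 change less that of the other probes was -2.47 ± 0.53 (SE), and this did not pass (limma adjusted p = 0.30). No probe of Ncam1, Mcam or Vcam1 passed this test, in which 0.34% of probes were called. The control arrays also lay apart for 5 of the 6 probes and not for P347103: control array 1 was above control array 2 by 1.08 to 1.79 in those 5 and by 0.03 in P347103.

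**Figure D2:**
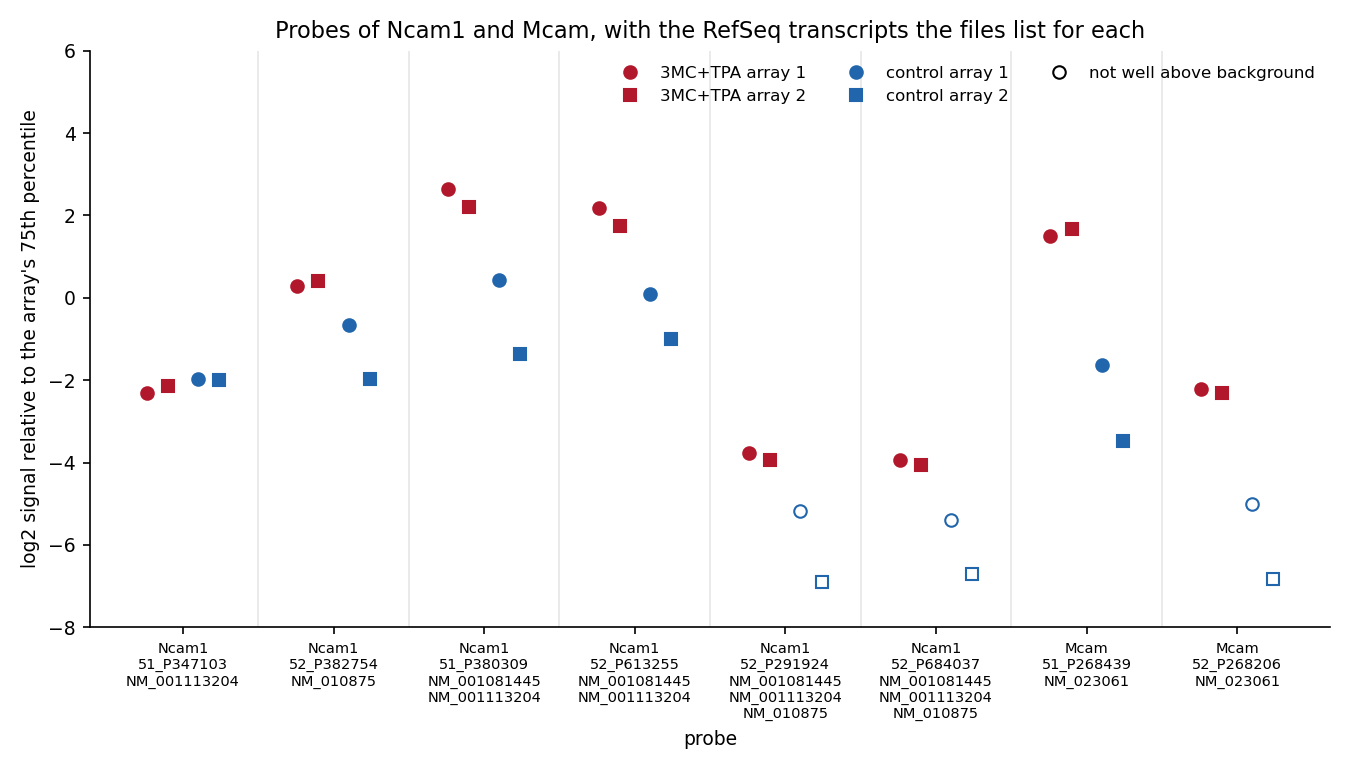
Log2 signal of the 6 Ncam1 and 2 Mcam probes on each array (vertical axis, with the array's 75th percentile at 0), with the RefSeq transcripts that the array files list under each probe; colours and symbols are those of the plot of the 10 genes. Ncam1 probe P347103 lies between -2.30 and -1.97 on all 4 arrays, and every other probe drawn lies higher on both 3MC+TPA arrays than on both control arrays. Of all tested probes, 64.1% had groups that did not overlap in either direction.

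Nrcam, an L1-family molecule that binds ankyrin and clusters sodium channels at nodes of Ranvier, was higher in exposed cells. Its control arrays lay closer together than those of Mcam and Ncam1. Its probe P180413 read -2.13 and -2.43 on the 3MC+TPA arrays, against -4.27 and -4.48 on the control arrays. The means were -2.28 ± 0.21 in 3MC+TPA cells and -4.37 ± 0.15 in control cells (SD, n = 2 each), and all 4 values were well above background. The log2 change was 2.10 ± 0.19 (SE), or 4.28-fold (limma adjusted p = 0.0038), with a 95% interval from 1.62 to 2.57. Its call was kept with any single array left out, where the log2 change lay between 1.95 and 2.24. The control values lay close to the lowest signals counted as above background, -4.72 and -4.78 on these arrays, and with the normexp background correction the log2 change was 0.88 (limma adjusted p = 0.0067).

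The other Nrcam probe, P148222, listed for the same 2 transcripts, was not well above background on any array and read -7.13 and -7.11 on the 3MC+TPA arrays, against -7.02 and -7.08 on the control arrays. The result for Nrcam therefore rests on 1 of its 2 probes. L1cam, which gives the family its name and promotes neurite growth, had 1 probe that was not well above background on any array: -6.34 and -5.16 on the 3MC+TPA arrays, against -6.72 and -5.77 on the control arrays. Chl1, the close homolog of L1, had 2 such probes, between -7.11 and -6.86. Ncam2, the relative of Ncam1 known from olfactory axons, had 3, between -7.11 and -6.73. For these 3 genes any difference between the groups was not detectable at this signal.

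Alcam, the ligand of the lymphocyte receptor CD6, did not pass the test. Its probe read -1.90 and -1.71 on the 3MC+TPA arrays, against -2.41 and -1.40 on the control arrays, so both exposed values lay between the control values. The log2 change was 0.10 ± 0.35 (SE), with a 95% interval from -0.80 to 1.01 (limma adjusted p = 0.87). Without control array 1 it was -0.40 and without control array 2 it was 0.61, neither past the threshold.

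Vcam1, the ligand of the integrin α4β1 on leukocytes, was bright in both groups and did not pass. Its brighter probe, P210956, read 4.24 and 4.40 on the 3MC+TPA arrays, against 4.70 and 4.38 on the control arrays, and the groups overlapped. The log2 change was -0.22 ± 0.18 (SE), with a 95% interval from -0.69 to 0.25 (limma adjusted p = 0.45), and it was 0.13 with no scaling between arrays. The second probe, P520495, read 0.65 and 0.42 on the 3MC+TPA arrays, against 0.79 and 0.21 on the control arrays, with a log2 change of 0.04 ± 0.25 (SE) and a limma adjusted p of 0.94 over probes. By both probes, changes as large as those of Mcam, Ncam1 and Nrcam lay outside the 95% interval.

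Icam1, the ligand of the leukocyte integrin LFA-1, had 1 probe that was not well above background on any array. It read -7.04 and -7.05 on the 3MC+TPA arrays, against -5.63 and -6.09 on the control arrays, so the groups did not overlap, as was the case for 63.9% of tested gene names. With no value well above background it was not tested, and no fold is given.

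Cadm1, known as a tumour suppressor of lung cancer and as an adhesion molecule of synapses, gave a signal on 1 array alone. Its probe P478061 read -3.13 and -6.99 on the 3MC+TPA arrays, against -6.90 and -6.99 on the control arrays, and the first value alone was well above background. The other 2 Cadm1 probes lay between -7.09 and -6.83 on all arrays and were not well above background on any. A signal on a single array was not rare: 675 and 881 probes were well above background on 3MC+TPA array 1 alone and on array 2 alone, against 666 and 822 on control arrays 1 and 2. Of these, 65 and 97 on the 3MC+TPA arrays and 88 and 73 on the control arrays were at least as bright as the Cadm1 probe. No change is given for Cadm1.

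The spread within the control group set the error of the largest changes. The gap between control arrays 1 and 2 was 1.86 for Mcam and 1.79 for Ncam1, each larger than in 99.3% of tested gene names, whose median gap was 0.20 in each group. For Alcam it was 1.01 in the other direction, control array 2 being the higher, and larger than in 96.5% of gene names. For Nrcam and Vcam1 the control gap was 0.21 and 0.32. On the 3MC+TPA arrays the gap of the 5 tested genes lay between 0.16 and 0.44. What differed between the control arrays was not tested.

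**Figure D3:**
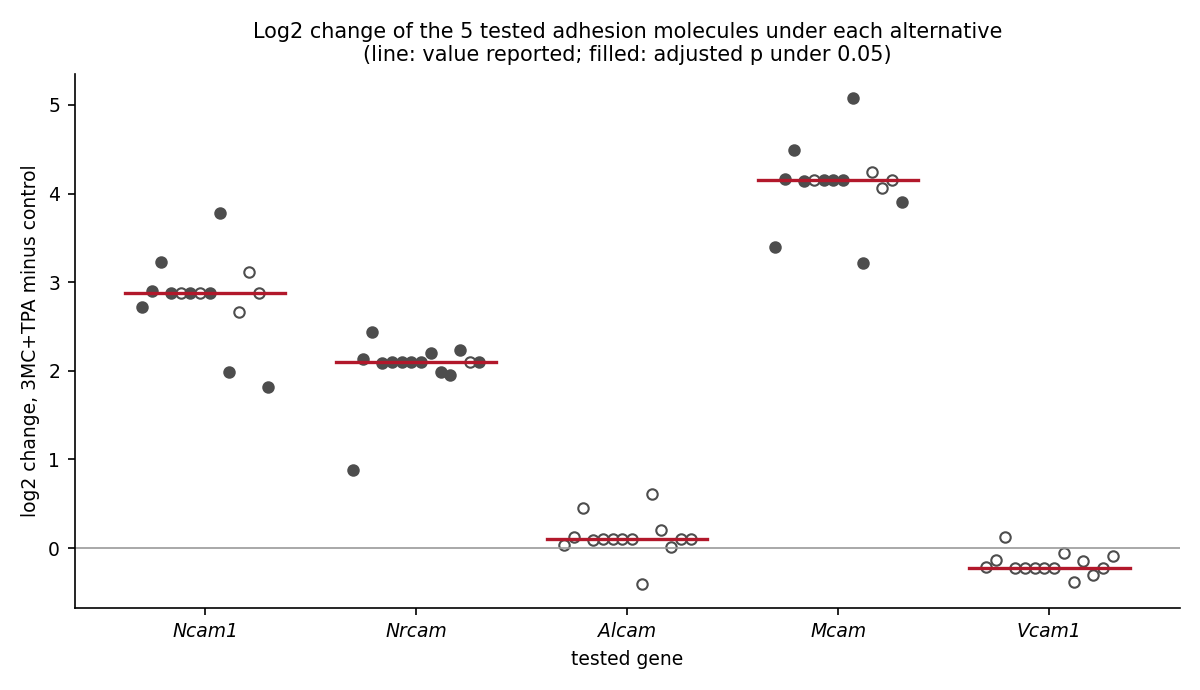
Log2 change, 3MC+TPA minus control (vertical axis), of the 5 tested genes under each of 14 alternative settings (points, filled where the adjusted p was under 0.05), with a red line at the value reported. Mcam ranges from 3.22 to 5.08, Ncam1 from 1.82 to 3.78 and Nrcam from 0.88 to 2.44, all above 0, while Alcam and Vcam1 have points on both sides of 0 and none that passed.

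Promoter sequences were available in the RefSeq table (GRCm38.p6) for 7 of the 10 genes, with 8 promoters in all. Ncam1, Vcam1 and Cadm1 were not among them. The 250 bases before the start were searched on both strands for the binding sequences of AP-1, the factor that phorbol esters activate through protein kinase C (TGANTCA, found in 6.75% of the table's 32851 promoters), of CREB (TGACGTCA, 1.55%) and of Sp1 (GGGCGG, 32.7%). The first of these was in none of the 8 windows. The promoters of Mcam and Nrcam are shown because these genes changed and are in the table, in lower case with the matches in capitals. That of Mcam, at chr9:44134408-44134657 on the plus strand, holds 1 TGACGTCA, whose first base lies 29 bases before the start, and 5 GGGCGG; 73.6% of its bases are G or C. That of Nrcam, at chr12:44328635-44328884 on the plus strand, holds 1 GGGCGG and is 72.4% G or C. Among the other genes with a promoter in the table, GGGCGG was also in the windows of Alcam, Ncam2, Icam1 and L1cam and not in that of Chl1. TGACGTCA was in none of these. A match describes the sequence and shows no binding.
Mcam: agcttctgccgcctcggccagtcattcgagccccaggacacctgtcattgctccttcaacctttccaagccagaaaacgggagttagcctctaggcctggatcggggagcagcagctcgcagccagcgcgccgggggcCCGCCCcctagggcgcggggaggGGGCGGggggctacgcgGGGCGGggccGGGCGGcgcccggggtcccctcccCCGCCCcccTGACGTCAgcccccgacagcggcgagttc
Nrcam: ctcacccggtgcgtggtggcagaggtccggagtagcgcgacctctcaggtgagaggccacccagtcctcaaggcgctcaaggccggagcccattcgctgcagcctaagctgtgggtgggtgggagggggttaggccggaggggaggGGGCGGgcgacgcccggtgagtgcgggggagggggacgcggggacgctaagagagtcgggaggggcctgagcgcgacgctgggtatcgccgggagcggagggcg

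By chromosome, 4 of the 10 genes lie on chromosome 9: the changed genes Ncam1 and Mcam, and Cadm1 and Icam1, which were not tested. Alcam and Ncam2 lie on chromosome 16, Vcam1 on 3, Chl1 on 6, Nrcam on 12 and L1cam on X.

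Among 32 other immunoglobulin-type adhesion molecules, 16 were tested, and of these 4 were higher in 3MC+TPA cells, 4 lower and 8 did not pass. Their median log2 change was -0.03, beside -0.01 over all tested gene names. F11r, whose product JAM-A seals tight junctions, had the largest change, at 4.79 and 4.85 on the 3MC+TPA arrays, against -1.75 and -2.80 on the control arrays, a log2 change of 7.10 ± 0.36 (SE) with a limma adjusted p of 0.00085. Its relatives of the JAM family fell, Jam2 by 0.80 and Jam3 by 1.08 on the log2 scale (limma adjusted p = 0.036 and 0.026), and so did the coxsackievirus and adenovirus receptor Cxadr, a tight junction protein, by 1.49 (limma adjusted p = 0.0063). The call of Jam2 held under 5 of the 14 alternatives: its log2 change was -0.42 over the mean of its tested probes and -0.45 with no scaling between arrays, neither past the threshold (limma adjusted p = 0.13 and 0.12). That of Jam3 held under 8.

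Thy1, a lipid-anchored immunoglobulin protein of fibroblasts, neurons and T cells, read 4.77 and 5.02 on the 3MC+TPA arrays, against 2.97 and 0.85 on the control arrays. Its log2 change was 2.98 ± 0.68 (SE), or 7.89-fold (limma adjusted p = 0.046), and it passed under 8 of the 14 alternatives. Without control array 1 the log2 change was 4.04, and without control array 2 it was 1.92. Of the nectins and their relatives, Nectin1 rose by 1.21 ± 0.26 (SE) and the poliovirus receptor Pvr by 1.08 ± 0.15 (SE) on the log2 scale (limma adjusted p = 0.038 and 0.013). The call of Nectin1 held under 8 of the 14 alternatives and that of Pvr under 10. Cntn6, a contactin of the developing nervous system, was not well above background at -6.51 and -7.01 on the 3MC+TPA arrays, against -3.12 and -2.95 on the control arrays, and was at least 3.42-fold lower in 3MC+TPA cells (limma adjusted p = 0.0013). It entered the test through the control arrays alone; after normexp its log2 change was -1.05, which is short of the bound.

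Of 24 receptors and intracellular partners of the adhesion molecules, 17 were tested, with 3 higher and 2 lower in 3MC+TPA cells, 12 not past the threshold and a median log2 change of 0.03. Ptprz1, a receptor phosphatase that binds NCAM, L1-family proteins and contactins, read 1.89 and 1.91 on the 3MC+TPA arrays, against -0.47 and -2.58 on the control arrays. The log2 change was 3.42 ± 0.68 (SE), with a limma adjusted p of 0.032. The control arrays lay far apart here too, and leaving out the first gave a change of 4.48 and leaving out the second 2.37. Ezr, the cytoskeletal linker ezrin, read 2.46 and 2.07 on the 3MC+TPA arrays, against 0.17 and 0.95 on the control arrays, a 3.27-fold rise (limma adjusted p = 0.026).

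Among the integrins of the same list, Itgb1, the β subunit of the VCAM1 receptor α4β1, rose by 1.34 ± 0.21 (SE) on the log2 scale (limma adjusted p = 0.019). Its partners Itga4 and Itga9 were not well above background on any array. Itgb2, the β subunit of the ICAM1 receptors, fell by 1.06 on the log2 scale (limma adjusted p = 0.023), a call that was lost with no scaling between arrays, at -0.71 (limma adjusted p = 0.066). Nrp2, a neuropilin of the semaphorin receptor family, read 1.82 and 1.76 on the 3MC+TPA arrays, against 3.35 and 3.24 on the control arrays, a log2 change of -1.50 ± 0.15 (SE) with a limma adjusted p of 0.0054. The ankyrin gene Ank3 and the ezrin relatives Msn and Rdx did not pass, with log2 changes between -0.29 and 0.03.

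Of 7 enzymes that process these molecules, 5 were tested, and 0 passed by limma, with 0 at an unadjusted p under 0.05 by limma or by the methods' t-test. Their median log2 change was -0.38. The gene with the largest difference was Adam8, a surface protease that can shed adhesion molecules, at -0.21 and -0.61 on the 3MC+TPA arrays, against -0.03 and 0.46 on the control arrays (log2 change -0.63 ± 0.25 SE, limma adjusted p = 0.15). The sheddases Adam10 and Adam17 and the secretase gene Bace1 had log2 changes between -0.45 and 0.17. The polysialyltransferase St8sia2, which adds polysialic acid to NCAM, was not well above background on any array. St8sia4 was well above background on 3MC+TPA array 1 alone.

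The genes for the cytokines that raise VCAM1 and ICAM1 in vessel walls, Tnf, Il1a, Il1b, Il4 and Ifng, were not well above background on any array. Of 20 such cytokine, receptor and NF-κB genes, 15 were tested, 0 were higher by limma and 1 was lower in 3MC+TPA cells, and the median log2 change was -0.25. At an unadjusted p under 0.05 the numbers were 0 higher and 4 lower by limma. The gene that fell was Nfkbie, an inhibitor of NF-κB, at 1.94 and 2.16 on the 3MC+TPA arrays, against 3.17 and 3.00 on the control arrays (limma adjusted p = 0.020). The other 14 had log2 changes between -0.60 and 0.40.

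**Figure D4:**
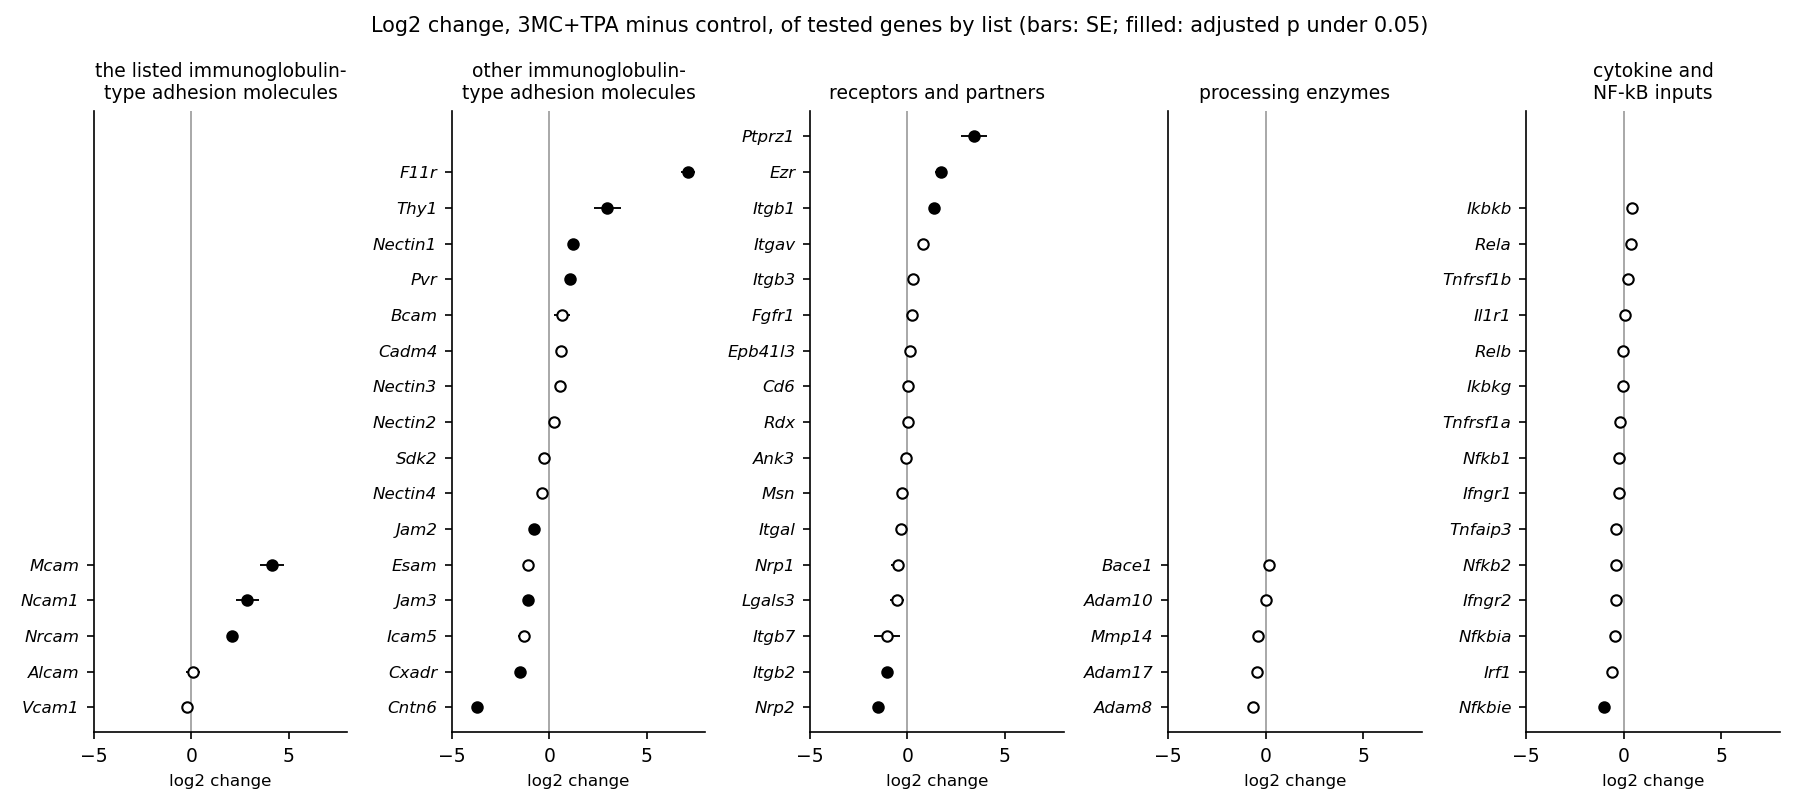
Log2 change, 3MC+TPA minus control (horizontal axis), of every tested gene of 5 lists, with bars of 1 SE and filled points where the adjusted p was under 0.05; Cntn6 and Esam are drawn at their fitted values although both were not well above background on the 3MC+TPA arrays. The largest change in the positive direction is 7.10, that of F11r. Of the 10 adhesion molecules 3 were called higher and 0 lower, of their relatives 4 and 4, and of their receptors and partners 3 and 2. Of the enzymes 0 and 0 were called, and of the cytokine and NF-κB genes 0 and 1. Over all tested gene names 7.47% were called higher and 8.35% lower.

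Markers of cell types in which Mcam, Ncam1 and Nrcam are known moved with these genes in part, and their part in the results was not tested. Of 8 muscle and pericyte markers 3 were tested, and Cspg4, the pericyte and glial progenitor proteoglycan NG2, rose 4.57-fold, at 2.53 and 2.50 on the 3MC+TPA arrays, against 0.78 and -0.14 on the control arrays (limma adjusted p = 0.015). The other 2 did not pass, and Rgs5 of the same list was not tested. It read -6.98 and -7.01 on the 3MC+TPA arrays, against -3.66 and -4.72 on the control arrays, and only -3.66 was well above background. The summed linear signal of this list was 278 and 312 on the 3MC+TPA arrays and 389 and 252 on the control arrays. Almost all of it came from Acta2, which read 8.09 and 8.26 on the 3MC+TPA arrays, against 8.59 and 7.97 on the control arrays. Of 8 neural and glial markers 6 were tested, and Map2, a microtubule protein of neurons, rose 13.5-fold, at 1.92 and 1.63 on the 3MC+TPA arrays, against -1.16 and -2.80 on the control arrays (limma adjusted p = 0.014). Its log2 change of 3.76 became 4.57 with control array 1 left out and 2.94 with control array 2 left out. The other 5 did not pass, and the summed signal was 19.5 and 22.7 on the 3MC+TPA arrays and 17.7 and 16.5 on the control arrays. Most of this signal came from Syn1, which read 3.89 and 4.24 on the 3MC+TPA arrays, against 4.04 and 3.97 on the control arrays.

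Of 6 endothelial markers, Tek alone was tested and was at least 1.77-fold higher in 3MC+TPA cells (limma adjusted p = 0.0088). It was not well above background on the control arrays and entered the test through the 3MC+TPA arrays alone. With normexp its log2 change was 0.29, which is short of the bound, and did not pass (limma adjusted p = 0.18). The summed endothelial signal was 0.115 and 0.119 on the 3MC+TPA arrays and 0.0809 and 0.0561 on the control arrays. Of the 3 tested leukocyte and the 3 tested epithelial markers 0 passed by limma; at an unadjusted p under 0.05 the numbers were 1 and 0, by limma and by the methods' t-test alike. The largest differences were those of Cd68 at a log2 change of 1.07 ± 0.39 (SE) and Krt14 at 0.40 ± 0.18 (SE), the second at -0.02 after normexp (limma adjusted p = 0.13 and 0.19). The summed leukocyte signal was 0.352 and 0.378 on the 3MC+TPA arrays and 0.266 and 0.319 on the control arrays, and the epithelial one 0.276 and 0.305 on the 3MC+TPA arrays and 0.268 and 0.30 on the control arrays. Among the 10 fibroblast markers Thy1 and Fap rose and Dcn, Pdgfra and Pdgfrb fell; Fap rose by 1.79 and Dcn, the matrix proteoglycan decorin, fell by 2.04 on the log2 scale (limma adjusted p = 0.020 and 0.0073), and Pdgfra and Pdgfrb fell by 1.47 and 1.02 (limma adjusted p = 0.020 and 0.022).

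Most calls of the related genes were lost with 1 of the 3MC+TPA arrays left out, and the number of calls over all tested gene names fell as well. Such a fit reads the spread within groups from the 2 control arrays alone. A lost call therefore does not show that the change rested on the array left out. Of the 21 called genes named here from the lists of relatives, partners, cytokine and NF-κB genes and markers, 16 kept the call without control array 1 and 17 without control array 2, but 4 without either 3MC+TPA array. Those 4 were F11r, Cntn6, Cxadr and Nrp2, and they kept it with any single array left out. Each array left out leaves a group with 1 array, which is then taken to vary like the other group.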

How the data were processed

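RNA of 2 samples of 3MC+TPA-exposed and 2 of control C3H10T1/2 cells was read in 1 colour (Cy3), 1 array each; groups come from the sample titles. The labels name no separate cultures, and the series' design text speaks of hybridisation in duplicate, so the p-values reflect how far these arrays differ, which can be technical variation alone. Per the file headers, Feature Extraction 10.7.3.1 made the intensity of each spot, background-subtracted and with a substitute value for dim spots, on a grid of mm9. The authors' deposited log2 values equal the log2 processed signal less its 75th percentile over the probes of the array, within 0.01 for at least 61236 of 61307 probes and for all 23 probes of the genes described. They are not centred by gene, and their medians are -4.39 and -4.35 on the 3MC+TPA arrays and -4.29 and -4.31 on the control arrays.

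The values reported are the log2 processed signal less the array's 75th percentile over its non-control spots (a signal of 701.3 and 747.2 on the 3MC+TPA arrays, 543.1 and 595.2 on the control arrays). Control spots (1319) and outlier spots (20 to 68 an array) were left out, spots of 1 probe were averaged, and 0 spots were saturated. Groups were compared with limma 3.58.1 in R 4.3.3 (lmFit and eBayes, 2-sided, no covariates, Benjamini-Hochberg), over gene names by their brightest probe and over probes; the number of arrays limits the precision. The fit was tested on simulated data. Alternatives were other scalings, filters, settings and tests, normexp background correction with an offset of 50, a replicate block and each array left out. A within-gene probe test was added after the values were seen. The methods' t-test is the test per gene in GeneSpring GX 11.5 that the design text names, run here on the values reported, with the 0.05 threshold used throughout.

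All 10 genes are named. Of each other list, up to 3 called genes with the largest change are named, or the tested gene with the largest change where none was called. To complete a count, after values had been seen, the text also names Nectin1, Pvr, Jam2, Jam3, Cxadr, Itgb1, Itgb2, Pdgfra and Pdgfrb, and some genes without a call. The genes and lists were chosen with earlier results of these data known. Some genes of the lists of enzymes and of cytokine and NF-κB genes are not reported here, and the counts leave them out. Symbols are those of the files, updated by accession where a gene table of GRCm38.p6 holds it (28136 of 61307 probes), so that Nectin1 and Ezr stand for Pvrl1 and Vil2; the accessions of all 23 probes carry the gene's own symbol there. Chromosomes come from that table.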

Additional observations from a re-analysis of the deposited data

How the results depend on the processing

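Over all gene names, 3952 were called, 5082 with normexp, 3892 with quantile normalization, 3800 with the authors' deposited values, 6726 with no scaling between arrays, 907 with no filter on dim probes, 5490 with limma's trend and robust settings and 23 by the methods' t-test (5721 unadjusted). With each array left out the counts ran from 1183 to 3328: 3328 and 2470 without control arrays 1 and 2, and 1426 and 1183 without 3MC+TPA arrays 1 and 2. No scaling shifted the median log2 change of all tested gene names to 0.34, beside -0.01, and the share of higher calls to 79.1%, beside 47.2%. Of the 10 genes 3 were called, 1 with no filter, 2 with trend and robust settings and 0 by the methods' t-test (2 unadjusted), and 1 to 3 with each array left out. Ncam1 had a log2 change of 2.88, and the call was lost with no filter (limma adjusted p = 0.17), with trend and robust settings (limma adjusted p = 0.069) and by the methods' t-test (adjusted p = 0.27). Mcam, at 4.15, lost it with no filter (limma adjusted p = 0.11) and by the methods' t-test (adjusted p = 0.21), and Nrcam, at 2.10, by the methods' t-test alone (adjusted p = 0.13). With each array left out Ncam1 ran from 1.99 to 3.78, Mcam from 3.22 to 5.08, Nrcam from 1.95 to 2.24, Alcam from -0.40 to 0.61 and Vcam1 from -0.38 to -0.06. Leaving out the filter adds dim gene names to the adjustment and to the spread shared between genes. The SE then went from 0.60 to 0.72 for Ncam1 and for Mcam, and from 0.19 to 0.17 for Nrcam. The t-test shares no spread between genes. The cause of the lost calls was not tested. With no scaling the sign turned for Vcam1 (0.13, also for probe P210956) and Ncam1 probe P347103 (0.12). It also turned for Krt14 with normexp (-0.02) and for Vcam1 probe P520495 without control array 2 and without 3MC+TPA array 1, with a range from -0.26 to 0.33 over the arrays left out. The mean of all tested probes gave Ncam1 a log2 change of 1.82 (limma adjusted p = 0.045).

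The samples of the groups share only a replicate number: over 24981 gene names, the deviations of 3MC+TPA array 1 and control array 1 from their group means had a correlation of 0.00281. With the replicate block 3589 gene names were called, and the calls of the 10 genes were the same 3. A slide block was not run because all arrays lie on 1 slide. Signal over background is the limit for Ncam2, L1cam, Chl1, Icam1 and Cadm1 and for the dim probes of Ncam1, Mcam and Nrcam.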
